A study of Mus musculus with 6 samples.

Results

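The genes described are those of the proteasome, the protein-degrading complex of the cytosol and nucleus, in murine pre-B cell lines before and after ionizing radiation (IR). They were chosen by symbol, as the probe sets whose single gene name on the array's platform begins with Psm, a letter from a to g and a number, and that reached a signal of 100 (arbitrary units) on at least 1 of 6 arrays. Of 49 such genes 47 qualified, out of 9678 genes with a tested probe set. Psma8, an alpha subunit of the testis, and Psmb11, the catalytic subunit of the thymus, did not qualify, with highest signals of 21.7 and 17.2, whereas the lowest that qualified, Psmc3ip, reached 355.9. Of the 47, 45 encode subunits, activators, inhibitors or assembly chaperones of the proteasome. Psmc3ip, a factor of meiotic recombination, and Psme3ip1, a binding partner of the activator subunit Psme3, share only the name. Psme2 was not analysed here, because its probe set carries 2 gene names.

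The study asked how genotoxic DNA breaks change gene expression in developing B cells. Each of 3 cell lines, derived independently from wild type mice with an Eμ-Bcl2 transgene (an antiapoptotic gene under a B lineage enhancer) and transformed with v-abl, was mock-irradiated (0 Gy) for 1 array and given 1 Gy, at 0.72 Gy per minute, for another. Both groups were held for 48 hours in 3 μM STI571 (imatinib), which blocks the Abl kinase and arrests the cells in G1, and irradiated cells were pelleted after 2 hours. The same line at both doses makes a pair, and n = 3 lines throughout. The p-values and standard errors from limma rest on the spread of these lines, drawn towards a variance common to all probe sets tested. Because total RNA of whole cultures was hybridised, a change in the share of cells cannot be told apart from a change of RNA per cell.

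The proteasome consists of a 20S core, in which 2 outer rings of alpha subunits and 2 inner rings of beta subunits enclose the cutting sites, and of caps. The 19S cap recognises ubiquitin-tagged proteins, and its ring of ATPases unfolds them. In most cells 3 constitutive beta subunits cut, Psmb6 (caspase-like), Psmb7 (trypsin-like) and Psmb5 (chymotrypsin-like). Lymphoid cells and cells exposed to interferon also use Psmb9, Psmb10 and Psmb8 in their places, which gives the immunoproteasome, known for making peptides for MHC class I.

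To show what lies before the genes on which the results turn, 250 bases before the start listed in the RefSeq promoter table are given. These are for Psmb5 and Psmb6, for the immunoproteasome subunits Psmb8 and Psmb9 that replace them, and for the cap subunits Psmd8 and Psmd11 (GRCm38.p6, 5′ to 3′ on the strand of the gene). Capitals mark every match, on either strand, to 5 motifs. These are the antioxidant response core TGACNNNGC, which Nfe2l1 and Nfe2l2 bind, the CCAAT box, the Zfp143 core ACTACAA, the interferon response element (GAAA repeated after any 2 bases), and the NF-κB consensus.
Psmb5 (chr14:54617996-54618245, minus strand): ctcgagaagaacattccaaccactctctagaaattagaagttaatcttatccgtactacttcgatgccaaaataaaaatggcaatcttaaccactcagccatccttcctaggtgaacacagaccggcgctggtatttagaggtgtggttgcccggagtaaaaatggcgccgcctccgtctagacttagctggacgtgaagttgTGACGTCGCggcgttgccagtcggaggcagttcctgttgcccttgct
Psmb8 (chr17:34197945-34198194, plus strand): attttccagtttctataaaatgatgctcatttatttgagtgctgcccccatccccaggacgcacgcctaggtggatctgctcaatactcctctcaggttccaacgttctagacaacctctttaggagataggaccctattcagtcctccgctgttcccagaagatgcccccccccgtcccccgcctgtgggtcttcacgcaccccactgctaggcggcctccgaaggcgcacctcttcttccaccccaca
Psmb6 (chr11:70525107-70525356, plus strand): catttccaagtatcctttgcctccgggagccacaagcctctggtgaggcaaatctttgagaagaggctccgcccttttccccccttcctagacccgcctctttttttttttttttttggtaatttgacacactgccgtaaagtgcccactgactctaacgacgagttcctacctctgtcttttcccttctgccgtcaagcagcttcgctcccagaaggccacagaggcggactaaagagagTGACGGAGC
Psmb9 (chr17:34187331-34187580, minus strand): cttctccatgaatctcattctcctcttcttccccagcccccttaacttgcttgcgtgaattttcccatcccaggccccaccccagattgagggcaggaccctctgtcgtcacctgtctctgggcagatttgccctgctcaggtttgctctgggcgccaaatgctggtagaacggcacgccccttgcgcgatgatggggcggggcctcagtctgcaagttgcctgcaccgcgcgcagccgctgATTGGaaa
Psmd8 (chr7:29180674-29180923, minus strand): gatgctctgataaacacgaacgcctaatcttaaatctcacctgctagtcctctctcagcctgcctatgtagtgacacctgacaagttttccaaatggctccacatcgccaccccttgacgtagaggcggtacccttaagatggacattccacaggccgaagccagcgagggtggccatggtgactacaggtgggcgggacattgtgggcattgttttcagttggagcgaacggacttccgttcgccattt
Psmd11 (chr11:80428365-80428614, plus strand): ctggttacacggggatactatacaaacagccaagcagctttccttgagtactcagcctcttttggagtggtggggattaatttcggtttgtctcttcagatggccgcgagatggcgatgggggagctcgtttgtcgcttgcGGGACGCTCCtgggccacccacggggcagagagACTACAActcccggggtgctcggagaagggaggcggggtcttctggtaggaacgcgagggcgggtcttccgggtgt

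Psmb5 and Psmb6 each held the antioxidant response core, 47 to 39 and 9 to 1 bases before the start in the promoter table, and Psmb8, Psmb9 and Psmb10 did not hold it in these windows. The 2 listings of Psmb6 differ. By its gene location Psmb6 starts at chr11:70525324, inside its window, and its core then lies within the gene. Psmb9 held a CCAAT box on the opposite strand, Psmd11 an NF-κB match and a Zfp143 core, which do not overlap, and the windows of Psmb8 and Psmd8 held none of the 5 motifs. Of the 47 genes, 40 matched the table by symbol, all but Psmb1, Psmb2, Psmb7, Psmc3, Psmd3, Psmd7 and Psmg2. The antioxidant response core stood in the windows of 5 of these 40 genes (Psmb5, Psmb6, Psmc6, Psmd12 and Psmd9) and in 10.2% of 32851 promoters. CCAAT stood before 15 of the 40 and 33.8% of all promoters, the NF-κB consensus before 6 and 7.25%, the interferon response element before 3 and 2.98%, and the Zfp143 core before 2 and 2.81%. A match describes the letters only, and no binding was measured.

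On each array, 41.7% to 43.8% of 45037 probe sets reached a signal of 100. All 6 measured marker genes of pre-B cells were at 100 or above on every array, and those of T cells, erythroid cells and stromal cells on none (0 of 5, 0 of 3 and 0 of 4). Of 6 myeloid markers only Itgam reached 100, and their summed signal was 255 to 330 at 0 Gy and 359 to 472 at 1 Gy. Of 3 plasma cell markers Sdc1 and Prdm1 reached 100, with sums of 727 to 1769 and 764 to 1523. RNA integrity, read from beta-actin as its 3′ signal over its 5′ signal, was 1.45 ± 0.0510 (SD, n = 3) at 0 Gy and 1.32 ± 0.0566 at 1 Gy. This ratio was lower at 1 Gy in each line. A two-sided exact permutation of the arrays without regard to line gave p = 0.1, the least that 3 against 3 arrays allow. The same ratio of Gapdh was 0.820 ± 0.0705 and 0.793 ± 0.00768, lower in 1 of 3 lines (p = 0.9 by the same exact permutation). The part of the myeloid sum and of these ratios in the results was not tested.

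Few proteasome genes passed the test, and those that did went both ways. With limma and the cell line as a block, Psmd8 and Psmd11 rose and Psmb8 and Psmb9 fell after 1 Gy (adjusted p under 0.05 over 21762 probe sets), 2 of 47 in each direction. The same rule called 6.61% of all genes higher and 14.7% lower (6.78% and 11.5% of all probe sets), so that the share of changed proteasome genes was not above the background. At an unadjusted p under 0.05 in this limma fit, 6 of the 47 were higher and 5 lower, against 1204 and 2695 of 9678 genes. Without the block only Psmd8 passed (1 higher and 0 lower, against 2.11% and 3.20% of genes and 1.93% and 2.55% of probe sets), while 6 were higher and 4 lower at an unadjusted p under 0.05. With line 1, 2 or 3 left out, 0 members passed in either direction, and 2 to 6 were higher and 2 to 3 lower at an unadjusted p under 0.05 (limma). Of all 21762 probe sets, 0 passed without line 1, 0 without line 2 and 299 without line 3. The unadjusted count over all genes was taken only with the block, the filter and all 3 lines. The median log2 change of the 47 genes was 0.12, and that of all genes -0.11. Of the 47, 28 had a mean change above 0 and 19 below 0, against 39.7% and 60.3% of all genes. By line, the median of the 47 was 0.00, 0.16 and 0.11. In 23 of the 47 there was a higher signal at 1 Gy in all 3 lines and in 9 a lower signal in all 3, against 23.7% and 41.3% of all genes and 24.7% and 34.5% of probe sets. The signals of the doses did not overlap in 14 genes that were higher and 6 that were lower, against 12.3% and 20.6% of all genes and 12.8% and 17.1% of probe sets.

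**Figure D1:**
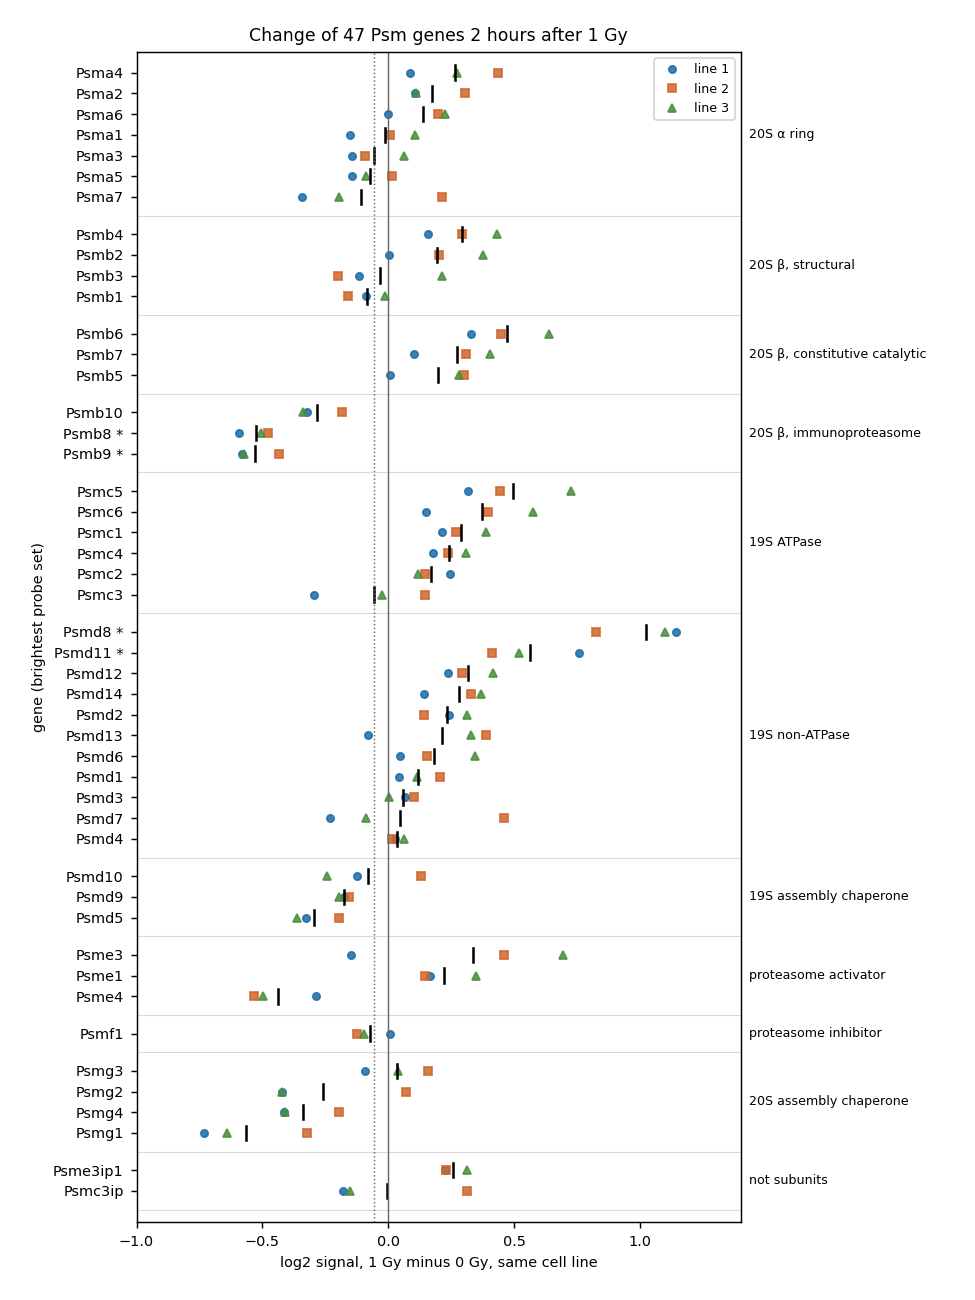
Change in log2 signal (horizontal axis, 1 Gy minus 0 Gy) of 47 genes (vertical axis, grouped by role), with 1 symbol per cell line, a black bar at the mean, an asterisk where the adjusted p was under 0.05, and a dotted line at the median of all probe sets tested (-0.06). All symbols of the 3 immunoproteasome genes lie left of 0 and all symbols of the 3 constitutive catalytic genes right of it.

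The catalytic subunits of the immunoproteasome were lower after IR in each line, and 2 of 3 passed the test. Among all genes 41.3% were lower in all 3 lines, 20.6% were lower without overlap and 14.7% were called lower. Psmb8, the chymotrypsin-like subunit, had signals of 5674, 6763 and 5463 in lines 1, 2 and 3 at 0 Gy and of 3766, 4856 and 3851 in the same lines at 1 Gy. The highest irradiated signal lay below the lowest mock signal. Psmb8 fell by 0.52 on the log2 scale (standard error 0.11, adjusted p = 0.0421 from limma), or 1.44-fold, and its change varied from -0.59 to -0.48 between lines.
Psmb9, the subunit that takes the place of Psmb6, went from 2643, 3229 and 2831 to 1769, 2392 and 1901 in the same order. Its doses did not overlap either, and it fell by 0.53 on the log2 scale (standard error 0.11, adjusted p = 0.0432 from limma), also 1.44-fold. Psmb10, which takes the place of Psmb7, had mock signals of 3148, 3147 and 3258 and irradiated signals of 2515, 2768 and 2576. It too was separated by dose, and its log2 change of -0.28 (standard error 0.11) did not pass (adjusted p = 0.153 from limma). Without the cell line as a block, none of the 3 passed (adjusted p of 0.141, 0.145 and 0.241 from limma), and after scaling to a common median Psmb8 and Psmb9 were at 0.0639 and 0.0644. With any 1 of the lines left out the adjusted p of Psmb8 and Psmb9 ran from 0.111 to 0.170. All 3 kept the lower signal in each line after quantile normalization and after median scaling.

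The constitutive catalytic subunits had higher signals at 1 Gy in each line, and none passed the test. Among all genes 23.7% were higher in all 3 lines, 12.3% were higher without overlap and 6.61% were called higher. Psmb6 had signals of 5599, 4776 and 4403 at 0 Gy and of 7037, 6514 and 6854 at 1 Gy. Every irradiated signal of Psmb6 exceeded every mock signal, and its log2 change of 0.47 (standard error 0.12) had an adjusted p of 0.0659 from limma (0.0463 with a signal of 100 on 3 or more arrays and 0.0111 with a trend in the variance prior). Psmb7 went from 926, 793 and 683 to 993, 984 and 903, or 0.27 on the log2 scale with a standard error of 0.12 (adjusted p = 0.192 from limma), with overlap between line 1 at 0 Gy and line 3 at 1 Gy. Psmb5 went from 4619, 4463 and 4110 to 4635, 5501 and 4986, and line 1 hardly differed between doses. Its log2 change was 0.20 (standard error 0.13, adjusted p = 0.323 from limma). After quantile normalization 2 of these 3 genes were higher in all 3 lines, and the mean change of each was still above 0.

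**Figure D2:**
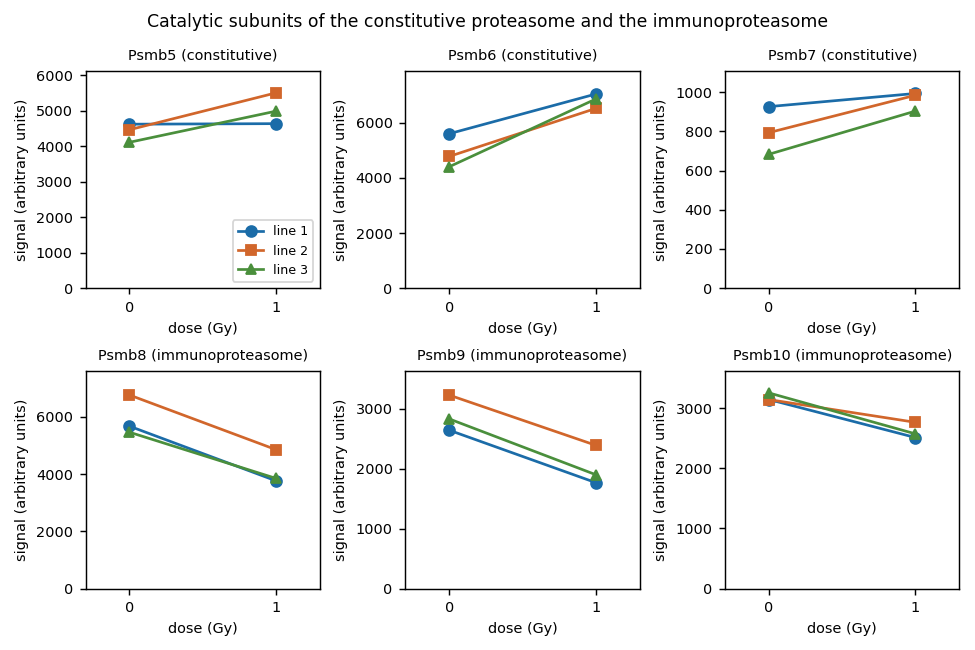
Signals (vertical axes, arbitrary units from 0) of the constitutive catalytic subunits (upper row) and of the immunoproteasome subunits that replace them (lower row) by dose in Gy (horizontal axis), each cell line drawn as a segment between its 2 signals. In the lower row every segment slopes down, on average by 1.44-fold for Psmb8 and Psmb9, and in the upper row the segments are flat or slope up.

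Set against its partner within each array, each immunoproteasome subunit was lower after IR. The change of Psmb8 minus that of Psmb5 was -0.60, -0.78 and -0.78 on the log2 scale in lines 1, 2 and 3, a mean of -0.72 ± 0.11 (SD, n = 3). For Psmb9 minus Psmb6 it was -0.91, -0.88 and -1.21, with a mean of -1.0 ± 0.18, so that the ratio between these partners shifted 2.00-fold. For Psmb10 minus Psmb7 it was -0.42, -0.50 and -0.74, with a mean of -0.55 ± 0.17. The sign was the same in 9 of 9 differences, which come from 3 gene pairs in the same 3 lines and are not independent. An exact permutation of the doses within lines gave p = 0.25 for each of the 3 pairs (two-sided, 0.25 after adjustment over the 3), the smallest that 3 lines allow, so that this design cannot reach the threshold. Such a difference shows unequal change within an array and is free of the scaling of that array.

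Psmb9 and Psmb8 lie beside the peptide transporter genes Tap1 and Tap2 in the MHC region, and 3 of these 4 neighbours fell after 1 Gy. For comparison, 14.7% of all genes were called lower and 41.3% were lower in all 3 lines. Whether the neighbours change together was not tested. In GRCm38.p6 the order is Psmb9 (chr17:34182030-34187330), Tap1 (chr17:34187556-34197225), Psmb8 (chr17:34198195-34201454) and Tap2 (chr17:34204479-34216321), with no other protein-coding gene between them over 34292 bases. Tap2 fell with the immunoproteasome genes, from 1420, 1690 and 1757 to 954, 1030 and 1180 in lines 1, 2 and 3. Its doses did not overlap, and its log2 change was -0.62 (standard error 0.11, adjusted p = 0.0318 from limma, and 0.0872 without the block). Tap1, which carries peptides as the other chain of the same transporter, had signals of 2114, 2901 and 3178 at 0 Gy and of 2805, 2949 and 3295 at 1 Gy. It did not pass, at 0.16 on the log2 scale with a standard error of 0.14 (adjusted p = 0.440 from limma), and its changes in the 3 lines were all above 0. The difference between Tap1 and its neighbours was not tested. The 250 bases before Psmb9 reach into Tap1, which is read in the opposite direction. Psmb10 lies elsewhere (chr8:105935728-105938392).

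**Figure D3:**
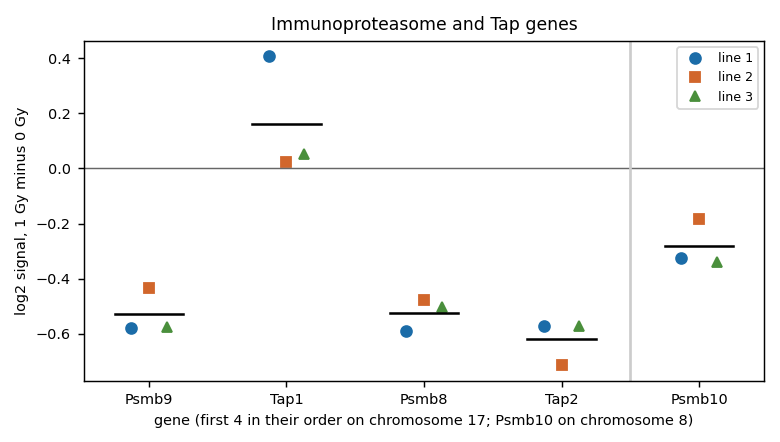
Change in log2 signal after 1 Gy (vertical axis) of Psmb9, Tap1, Psmb8 and Tap2 in their chromosomal order and of Psmb10 (horizontal axis), with 1 symbol per cell line and a bar at the mean. Tap1 lies above 0 in all 3 lines and the other 4 genes below it.

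Among 13 measured genes of MHC class I antigen processing, 2 rose and 1 fell with the block (0 and 0 without it, and 5 and 1 at an unadjusted p under 0.05 with it, limma), and the median log2 change was 0.16. With the block 6.61% of all genes were called higher and 14.7% lower, and 1204 and 2695 of 9678 genes passed unadjusted in these directions. The 1 that fell was Tap2. Canx, the chaperone calnexin, rose from 9060, 7775 and 8535 to 13583, 12542 and 13333, a log2 change of 0.64 (adjusted p = 0.0287 from limma). Irf1, a transcription factor that activates immunoproteasome and Tap genes, rose from 3730, 4679 and 3662 to 6766, 6751 and 5094 (0.62 on the log2 scale, adjusted p = 0.0443). Irf1 was higher on the arrays on which Psmb8 and Psmb9 were lower. The MHC chains H2-K1, H2-D1 and B2m had log2 changes of 0.16, 0.23 and 0.12 and did not pass.

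Genes of the 19S cap mostly had higher signals at 1 Gy. Of 17 measured, 2 rose and 0 fell, and 16 had a mean change above 0, which was 15 after quantile normalization, where Psmd4 turned to -0.01. Over all genes 6.61% were called higher and 39.7% had a mean change above 0. Their median log2 change was 0.23. In the lid of the cap, Psmd8 stood out in size. Its signals were 7197, 6602 and 7204 at 0 Gy and 15873, 11686 and 15422 at 1 Gy. The doses were far apart, and Psmd8 rose by 1.02 on the log2 scale (standard error 0.13, adjusted p = 0.0172 from limma), or 2.03-fold. It was the 1 member that also passed without the block (adjusted p = 0.0362), and with any 1 line left out its adjusted p ran from 0.0572 to 0.0765. Psmd11, a scaffold of the lid, rose from 7727, 8932 and 7399 to 13050, 11866 and 10607. Again no irradiated signal came down to a mock signal, and the log2 change was 0.56 (standard error 0.13, adjusted p = 0.0491 from limma, and 0.0987 without the block). With quantile normalization and with median scaling Psmd11 was at 0.0723 and 0.0541.

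The other lid and base subunits were not called. Psmd12 went from 2633, 2545 and 2460 to 3107, 3114 and 3279, with no overlap and a log2 change of 0.31 (adjusted p = 0.126 from limma). Psmd14, the deubiquitinase of the lid, had a log2 change of 0.28 and Psmd2, a base subunit that binds ubiquitin-like proteins, of 0.23. For Psmd13, Psmd6, Psmd1, Psmd3 and Psmd7 the log2 changes were 0.21, 0.18, 0.12, 0.06 and 0.05, and Psmd7 was higher in 1 of 3 lines only. Psmd4, a ubiquitin receptor, was almost level in its brightest probe set, with 4144, 4089 and 4073 at 0 Gy and 4223, 4125 and 4256 at 1 Gy. The mean of its 3 probe sets had a log2 change of 0.18 (adjusted p = 0.332 from limma).

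In the ATPase ring of the cap, 5 of 6 genes were higher at 1 Gy in all 3 lines, also with quantile normalization and median scaling, and 0 of 6 passed the test. Over all genes 23.7% were higher in all 3 lines. Psmc5 had signals of 2638, 2750 and 2278 at 0 Gy and of 3284, 3738 and 3765 at 1 Gy, without overlap. Its log2 change of 0.49 (standard error 0.14) had an adjusted p of 0.0710 from limma, and under the same 2 settings as for Psmb6 it was 0.0497 and 0.0114. Psmc6, Psmc1, Psmc4 and Psmc2 followed with 0.37, 0.29, 0.24 and 0.17. With their probe sets averaged, Psmc6, Psmc4 and Psmc2 had log2 changes of 0.37, 0.11 and 0.01. Psmc3 differed, with a log2 change of -0.06 and changes of -0.30, 0.15 and -0.03 in lines 1, 2 and 3.

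Among the structural subunits of the 20S core none passed the test, and their log2 changes lay between -0.11 and 0.29. In the alpha ring, which gates entry to the core, 0 of 7 passed, and log2 changes ran from -0.11 (Psma7) to 0.27 (Psma4), with a median of -0.01 that turned to 0.04 after median scaling. Psma4 was higher in 3 of 3 lines, from 7189, 6171 and 5873 to 7634, 8344 and 7098, and Psma7 went both ways, with changes of -0.34, 0.21 and -0.19. Psma2 and Psma6 had log2 changes of 0.17 and 0.14, and Psma1, Psma3 and Psma5 of -0.01, -0.06 and -0.07. Of the 4 beta subunits without a cutting site, 0 passed. Psmb4 went from 9370, 8466 and 7816 to 10462, 10355 and 10547, and its doses did not overlap (log2 change 0.29, adjusted p = 0.159 from limma). Psmb2, Psmb3 and Psmb1 had log2 changes of 0.19, -0.03 and -0.09.

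The activators, which open the core without ubiquitin, split by gene. Psme4 (PA200), a nuclear activator known for the degradation of acetylated histones, had signals of 11865, 13550 and 12815 at 0 Gy and of 9720, 9374 and 9080 at 1 Gy. The doses were separated, and the log2 change of -0.44 (standard error 0.12) did not pass (adjusted p = 0.0713 from limma, 0.0471 after quantile normalization and 0.0168 with a trend in the variance prior). Psme1, a subunit of PA28 that interferon induces together with the immunoproteasome, had a log2 change of 0.22, opposite in sign to Psmb8, Psmb9 and Psmb10 (adjusted p = 0.246). Psme3, the nuclear PA28 subunit, had changes of -0.15, 0.46 and 0.70 in lines 1, 2 and 3 and the largest standard error of the 47 genes (0.20). The inhibitor Psmf1 (PI31) changed by -0.07, which became 0.02 after quantile normalization.

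Assembly chaperones, which help to build the complex and leave it, mostly had lower signals at 1 Gy. Psmg1, which with Psmg2 builds the alpha ring, had signals of 936, 748 and 743 at 0 Gy and of 563, 598 and 476 at 1 Gy. The doses did not overlap, and the log2 change of -0.57 (standard error 0.14), the most negative of the 47, did not pass (adjusted p = 0.0552 from limma, 0.119 without the block). Psmg1 passed in 4 of 11 alternative settings, at 0.0362 with a signal of 100 on 3 or more arrays, 0.0431 with 16 added to the signal, 0.0132 with a trend in the variance prior and 0.0476 with probe sets averaged per gene. Psmg4 and Psmg2 had log2 changes of -0.34 and -0.26 and Psmg3 of 0.03. Of the chaperones of the 19S base, Psmd5 went from 1630, 1623 and 1511 to 1301, 1416 and 1174 (log2 change -0.30, adjusted p = 0.142 from limma), and Psmd9 and Psmd10 changed by -0.18 and -0.08. Together 6 of 7 chaperone genes had a mean change below 0, also after quantile normalization and median scaling, and 0 passed the test. Below 0 were also 60.3% of all genes. Among the genes that share only the name, Psme3ip1 had a log2 change of 0.26 and Psmc3ip of -0.01.

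Several probe sets of a gene mostly gave the same direction. Of the 47 genes 23 had more than 1 tested probe set, and 30 of the 38 further probe sets had the sign of the brightest. Psmd11 was measured by 4, all of which rose, with log2 changes of 0.54 to 0.65 and adjusted p of 0.0271 to 0.0491 from limma. Psme4 was measured by 6, of which 5 were lower in all 3 lines with log2 changes of -0.60 to -0.38, and the remaining changed by -0.17. The signs differed for Psma1, Psma5, Psmb4, Psmc2, Psmc4, Psmd13, Psmf1 and Psmc3ip, where none of the probe sets was called. Psmd8, Psmb6, Psmb7, Psmb9 and Psmb10 have 1 probe set each, and the second of Psmb8 stayed below 100. RefSeq lists pseudogenes of Psma5, Psmb5, Psmb6 and Psmb7, whose RNA the probes may not separate from that of the gene.

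**Figure D4:**
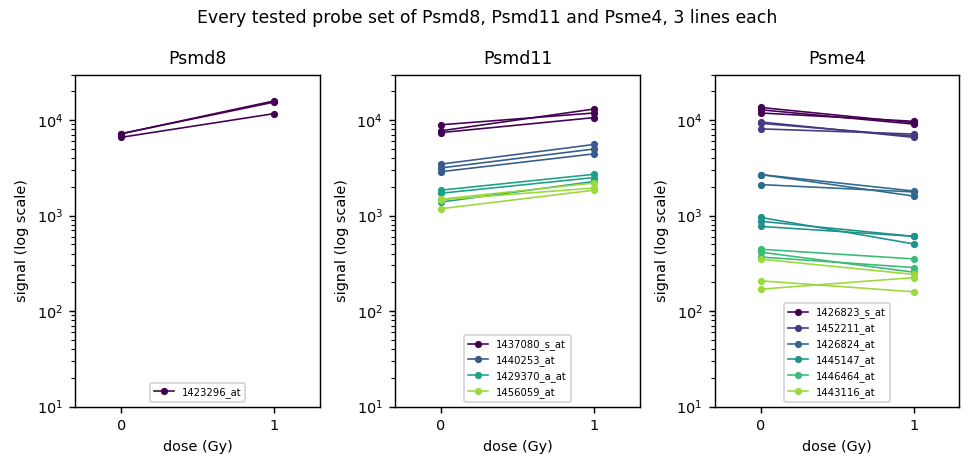
Signals (vertical axes, arbitrary units on a log scale) of every tested probe set of Psmd8, Psmd11 and Psme4 at 0 and 1 Gy (horizontal axis), with 1 colour per probe set and 1 line per cell line. All 4 probe sets of Psmd11 slope up in each cell line, and 5 of 6 of Psme4 slope down in each.

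Partners of the proteasome outside the Psm names showed few changes, against 6.61% of all genes called higher and 14.7% lower. At an unadjusted p under 0.05 with the block (limma), 1204 of 9678 genes were higher and 2695 lower. Of 19 measured, 1 rose and 0 fell with the block (0 and 0 without it, and 4 and 1 at an unadjusted p under 0.05 with it, limma), with a median log2 change of 0.02. The 1 that rose was Nfe2l1, the transcription factor that induces proteasome genes when degradation is blocked. It went from 839, 1004 and 784 to 1373, 1548 and 1512, or 0.76 higher on the log2 scale with a standard error of 0.13 (adjusted p = 0.0266 from limma, and 0.0521 without the block).

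Before irradiation the cell lines differed from each other by gene. The highest mock signal exceeded the lowest by 1.02-fold (Psmd4) to 2.20-fold (Psmc3ip), and among proteasome genes by at most 1.89-fold (Psme3, with 689, 584 and 364). The 3 lines also differed in the size of their response. The change was the smallest in size in line 1 for 23 of the 47 genes, among them Psmb5, Psmb6, Psmb7, Psmc5 and Psme4, in line 2 for 15, among them Psmb8, Psmb9, Psmb10, Psmg1, Psmd8 and Psmd11, and in line 3 for 9. Line 1 alone had the opposite sign in 6 genes, line 2 in 7 and line 3 in 2.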

How the data were processed

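Per the labels, total RNA of 3 cell lines at 0 and 1 Gy was hybridised to Affymetrix mouse expression arrays, 1 array per line and dose. The authors deposited linear signal intensity for every probe set, and MAS5 is the tool that the submitters' processing notes give. With its outer 2% of probe sets left out at either end, each array has a mean of 500, and the RMA and quantile steps of the study's own analysis are not in them. Here, log2 signals (a signal under 1 set to 1) of the 21762 probe sets with 100 or more on at least 1 array were tested with limma 3.58.1 in R 4.3.3, with dose and cell line as factors and Benjamini-Hochberg adjustment over all of them. The 64 control probe sets were left out. The probe set with the highest mean log2 signal stood for a gene, named from the platform annotation. Of 45037 probe sets 34945 have 1 gene name, 932 several and 9160 are not listed.

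The study's ANOVA names dose only, and this fit without the line was the alternative. The design text gives both doses for each line, and deviations from the group means of arrays with the same replicate number correlated at 0.668 to 0.781 (3 pairs) and of others at -0.495 to -0.053 (6 pairs), so that the numbers pair the arrays. Other alternatives were no filter, 100 on 3 or more arrays, quantile normalization, median scaling, 16 added to the signal, a variance prior with a trend, probe sets averaged per gene, the test of the study's methods, and each line left out. The members and lists were chosen with earlier results of these data known. The text names the 6 catalytic genes, all called members, the highest and lowest member of each role, and called genes of 2 further lists, which hold 31 partner symbols, older names included, and 14 of antigen processing. The other members are given by value so that each is accounted for, and Tap1, H2-K1, H2-D1 and B2m were added after their values were seen. The fit was also run on simulated data. The changes added there were larger than those of every member but Psmd8, so that recovery of smaller changes was not examined. Precision is limited by the number of arrays.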

Additional observations from a re-analysis of the deposited data

How the results depend on the processing

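With no replicate block, 1 member was called higher and 0 lower, against 2 and 2 with the line as a block, and 0 and 0 of the partners and of the antigen processing genes were called. The same 0 counts came without the filter on dim probe sets, where limma called 0 of 45037 probe sets and 2 members were higher and 3 lower at an unadjusted p under 0.05. They also came without replicate 1, 2 or 3, where the counts ranged from 0 to 0 for members, partners and antigen processing genes alike, with 2 to 6 members higher and 2 to 3 lower unadjusted. Over all probe sets, 0 were called without replicate 1, 0 without replicate 2 and 299 of 21762 without replicate 3. The members called higher numbered 4 with a minimum of 100 on 3 or more arrays, 1 with quantile normalization, 1 with median scaling, 6 with a trend in the variance prior, 1 with the test of the study's methods (p of 0.05 and 1.5-fold, Psmd8) and 0 with that test after Benjamini-Hochberg adjustment. Those called lower numbered 0 with median scaling, 4 with the trend, and 0 and 0 with the 2 forms of the methods' test. Over all probe sets, the stricter minimum called 1856 of 19642 higher and 3006 lower. Of 21762, quantile normalization called 1675 higher and 2051 lower, median scaling 1629 and 2073, and the trend 2400 and 3721. With 16 added to the signal it was 1754 and 2988. The methods' test at 1.5-fold called 2850 in both directions together. Partners called higher and lower were 2 and 1 with the stricter filter, 2 and 1 with log2 of the signal plus 16, and 4 and 1 with the trend. Antigen processing genes called higher were 0 with quantile normalization and 5 with the trend. The median log2 change of the members stayed within 0.08 to 0.17, and the differences between catalytic partners kept their sign, at -0.78 to -0.69, -1.06 to -0.89 and -0.64 to -0.46 for Psmb8, Psmb9 and Psmb10. Signs turned for genes near 0. Quantile normalization gave 0.11 for Psmc3ip, -0.010 for Psmd4 and 0.025 for Psmf1, and median scaling 0.043 for Psmc3ip, 0.035 for Psma1 and 0.016 for Psmb3. With 1 line left out, log2 changes ran from -0.27 to 0.0097 for Psma7, from -0.16 to 0.060 for Psmc3, from -0.17 to 0.081 for Psmc3ip, from -0.18 to 0.0029 for Psmd10 and from -0.027 to 0.10 for Psmg3, while Psma1 turned to 0.055 without line 1, Psmb3 to 0.0076 without line 1 and 0.049 without line 2, and Psmd7 to -0.16 without line 2. In all cases the cause was not tested.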
